A study of Mus musculus with 6 samples.

Results

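The globin genes and a pair of other red cell genes were followed through bulk RNA-seq of the developing mouse palate. The group holds 9 of the 56691 gene identifiers in the count tables. It was drawn up by name and matched by symbol. No measured value entered the rule, though earlier results of these data were known. It comprises the embryonic globins Hba-x, Hbb-y and Hbb-bh1, the adult globins Hba-a1, Hba-a2, Hbb-bt and Hbb-bs, the heme enzyme gene Alas2 and the anion exchanger gene Slc4a1. The study took the front and the rear parts of the palatal shelves from C57BL/6J embryos at E14.0. There were 3 anterior and 3 posterior libraries, each from microdissected tissue of 1 end of the shelves. The 2 groups shared strain and stage, no treatment or allele is named for either, and the middle of the palate was not included. The study describes the libraries as biologically independent samples. How many embryos went into each is not given in the sources used here.

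Hemoglobin is a tetramer of alpha-type and beta-type chains, each holding a heme group that binds oxygen. The first red cells of the mouse arise in the yolk sac and carry embryonic globins. Red cells made later in the fetal liver carry adult globins, and at mid-gestation both kinds circulate in the blood of the embryo. Outside the blood-forming organs, transcripts of these genes are usually read as those of blood in the tissue.

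The genes lie in 2 globin clusters and at 2 single sites (positions from GENCODE M21 on GRCm38). Hba-x (ENSMUSG00000055609.9, chromosome 11 from 32276400 to 32278116), Hba-a1 (ENSMUSG00000069919.8, from 32283511 to 32284465) and Hba-a2 (ENSMUSG00000069917.8, from 32296489 to 32297298) form the alpha cluster on the plus strand. Hbb-bt (ENSMUSG00000073940.4, chromosome 7 from 103812524 to 103813996), Hbb-bs (ENSMUSG00000052305.7, from 103826534 to 103828096), Hbb-bh1 (ENSMUSG00000052217.7, from 103841637 to 103843164) and Hbb-y (ENSMUSG00000052187.5, from 103851749 to 103853216) form the beta cluster on the minus strand. Alas2 (ENSMUSG00000025270.14) lies on chromosome X from 150547375 to 150570638, where it overlaps Apex2 on the other strand. Slc4a1 (ENSMUSG00000006574.16) lies on chromosome 11 from 102348824 to 102366203. All 9 are protein-coding, and the reads were counted on their exons.

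How alike the paralogs are decides which reads can be counted, so the first 60 coding bases are shown for each distinct globin (GENCODE M21, bases 1 to 60 from the start codon). Capitals mark bases that differ from Hba-a1 in the alpha cluster and from Hbb-bs in the beta cluster.
Hba-a1: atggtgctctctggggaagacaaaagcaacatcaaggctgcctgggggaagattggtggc
Hba-x: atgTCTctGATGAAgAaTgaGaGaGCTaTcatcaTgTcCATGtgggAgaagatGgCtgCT
Hbb-bs: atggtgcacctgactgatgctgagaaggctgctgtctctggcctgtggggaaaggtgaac
Hbb-y: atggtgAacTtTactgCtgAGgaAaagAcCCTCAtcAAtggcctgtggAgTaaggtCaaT
Hbb-bh1: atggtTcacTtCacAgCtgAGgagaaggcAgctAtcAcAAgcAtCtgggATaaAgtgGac

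The embryonic genes were easily told from the adult ones by sequence. Hba-x differed from Hba-a1 at 28 of these 60 bases, Hbb-y from Hbb-bs at 19 and Hbb-bh1 from Hbb-bs at 18. Over the whole coding sequence Hba-x and Hba-a1 were 61.7% identical, Hbb-y and Hbb-bs 74.4%, and Hbb-y and Hbb-bh1 76.4%. The adult pairs were near copies. Hba-a2 matched Hba-a1 over all 60 bases shown and differed at 1 of 426 coding bases (C381T, Hba-a1 first, counted from the A of the start codon). Hbb-bt likewise differed from Hbb-bs at 1 of 441 (T417C, Hbb-bt first).

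A read that fits 2 genes equally maps to several places and is not counted in tables of this layout. Of the 50-base windows of the transcript, 67.5% in Hba-a1 and 86.9% in Hba-a2 also occurred in the other gene. The shares were 58.3% in Hbb-bt and 65.8% in Hbb-bs. Windows of 100 bases gave 56.5% and 74.5% for the alpha pair and 54.8% and 62.6% for the beta pair. Hba-x, Hbb-y, Hbb-bh1 and Slc4a1 shared 0 windows of either length with another gene. The adult globin counts are therefore lower bounds on adult globin reads, whereas by these windows the embryonic genes shared nothing to lose. The read length is not given in the sources used here, so the size of the loss cannot be stated.

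Members of a cluster are switched through development by a shared distal enhancer and by factors bound at each promoter, so the promoters of an adult and an embryonic gene are shown as well. They are the 250 bases before the RefSeq start of transcription, read on the gene's own strand, for Hba-a2 (GRCm38.p6, chr11:32296242-32296491, plus strand) and Hbb-y (GRCm38.p6, chr7:103853208-103853457, minus strand). Capitals mark matches on either strand to GATAA (the core bound by GATA factors), CACCC (bound by KLF1 and its relatives), CCAAT and TATAA.
Hba-a2: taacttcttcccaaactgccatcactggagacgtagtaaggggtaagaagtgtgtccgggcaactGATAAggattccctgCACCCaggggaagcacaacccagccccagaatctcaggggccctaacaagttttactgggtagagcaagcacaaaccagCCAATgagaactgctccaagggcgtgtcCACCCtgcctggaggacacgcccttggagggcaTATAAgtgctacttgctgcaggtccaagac
Hbb-y: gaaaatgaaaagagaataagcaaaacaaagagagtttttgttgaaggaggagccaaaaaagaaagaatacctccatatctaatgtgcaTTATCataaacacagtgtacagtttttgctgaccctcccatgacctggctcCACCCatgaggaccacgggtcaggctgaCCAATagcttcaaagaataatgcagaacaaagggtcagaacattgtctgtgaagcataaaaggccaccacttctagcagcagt

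RefSeq promoters were at hand for 7 of the 9 genes, all but Hbb-bh1 and Slc4a1. Each of the 7 held 1 GATAA match, a motif found in 22.6% of 32851 promoters of this length. Each also held at least 1 CACCC match, against 52.0% of all promoters. CCAAT (33.8% of all) was absent from the windows of Hba-x and Alas2, and TATAA (22.8%) from that of Hbb-y. Taken with 50 bases past the start, as windows of 300 bases, the sequences of Hba-a1 and Hba-a2 were the same over 297 of 297 bases when shifted by 3. These matches are a description of the letters only.

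The reverse-stranded counts summed to between 11378736 and 15172733 per library, and 3 counts, the limit that a count of 0 allows, corresponded to 0.206 to 0.260 CPM for counting error alone. Posterior replicates 2 and 3 stood apart from the other 4 libraries, and no label says why. Their multimapped reads came to 6.12% and 5.94%, while the others had 8.45% to 8.77%. Mitochondrial genes held 0.973% and 1.14% of their counts, against 2.70% to 2.97%. Relative to the other libraries, short transcripts were also lower in them, with a fitted offset at 600 bases of -0.17 and -0.23 (log2) against 0.057 to 0.18. All values below are counts scaled to library size by edgeR's TMM method (CPM), and differences are log2 fold changes of posterior over anterior palate from edgeR's quasi-likelihood test with Benjamini-Hochberg adjustment over 15673 genes.

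Red cell transcripts were present in every library, and none of the 9 genes differed between the regions by the test. Of all genes tested, 7.46% passed an adjusted p of 0.05, and the CPM ranges of the regions did not overlap for 28.0%. Among these 9 genes the number was 0 on both counts. All 9 fitted values were below 0, with a median of -0.25, where the median of all genes was -0.0040 and 50.4% lay below 0. In edgeR unadjusted p-values below 0.05 were found for 0 of the 9 and for 3946 of all genes (25.2%). DESeq2, which called 8.56% of all genes higher and 4.06% lower in the posterior palate, called 0 of the 9. With limma-voom, which called 6.85% of all genes, 0 of the 9 were called, and Alas2 and Slc4a1 had unadjusted p-values below 0.05, as did 24.1% of all genes. In bulk tissue, fewer red cells and less RNA per red cell cannot be told apart.

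The embryonic alpha-like gene Hba-x, which encodes the zeta chain, had 50.5, 62.7 and 58.4 CPM in anterior replicates 1, 2 and 3. Posterior replicates 1, 2 and 3 had 71.5, 34.4 and 35.0 CPM. Its highest and its 2 lowest libraries were thus all posterior, with the anterior libraries between them. The means were 57.2 ± 6.23 CPM (SD, n = 3) and 47.0 ± 21.3 CPM (SD, n = 3), and the log2 fold change was -0.29 (standard error 0.28, 95% interval -0.94 to 0.37, adjusted p = 0.538, edgeR).

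Hbb-y encodes the epsilon y chain, the main embryonic beta-type chain of the mouse. It had 374, 445 and 486 CPM in anterior replicates 1, 2 and 3 and 528, 301 and 326 CPM in posterior replicates 1, 2 and 3. As for Hba-x, posterior replicate 1 was above every anterior library and the other posterior libraries were below them. The log2 fold change was -0.18 (standard error 0.22, 95% interval -0.69 to 0.34, adjusted p = 0.630, edgeR).

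Hbb-bh1, the other embryonic beta-type gene, is used earliest and is switched off before Hbb-y. It was rare, with 43, 63 and 31 counts in the anterior and 52, 38 and 56 counts in the posterior libraries. That is 3.26, 4.58 and 2.68 CPM against 3.89, 2.75 and 3.84 CPM. The lowest and the highest library were both anterior, and posterior replicate 3 was not low. The log2 fold change was -0.011 (standard error 0.28, 95% interval -0.65 to 0.63, adjusted p = 0.982, edgeR). Hbb-bh1 made up 0.549% to 1.17% of the embryonic beta-type counts.

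The adult alpha chain is encoded by both Hba-a1 and Hba-a2. Hba-a1 had 190, 219 and 248 CPM in the anterior and 244, 114 and 141 CPM in the posterior libraries. Posterior replicate 1 fell within the anterior range here, just under anterior replicate 3. The log2 fold change was -0.40 (standard error 0.27, 95% interval -1.02 to 0.23, adjusted p = 0.375, edgeR). Hba-a2 had 56.9, 67.0 and 58.6 CPM in the anterior and 84.3, 35.8 and 33.9 CPM in the posterior libraries, with posterior replicate 1 again the highest of all. Its log2 fold change was -0.25 (standard error 0.34, 95% interval -1.03 to 0.54, adjusted p = 0.657, edgeR).

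The adult beta chain is encoded by Hbb-bs and Hbb-bt. Hbb-bs had 325, 377 and 385 CPM in the anterior and 441, 240 and 268 CPM in the posterior libraries. Hbb-bt had 126, 147 and 136 CPM in the anterior and 180, 88.1 and 89.9 CPM in the posterior libraries. For both, posterior replicate 1 was the highest library and posterior replicates 2 and 3 were the lowest. The log2 fold changes were close, at -0.20 for Hbb-bs (standard error 0.22, 95% interval -0.72 to 0.33, adjusted p = 0.596, edgeR) and -0.20 for Hbb-bt (standard error 0.27, 95% interval -0.83 to 0.43, adjusted p = 0.659, edgeR).

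Alas2 is the red cell form of the enzyme that starts heme synthesis. It was the most even of the 9 genes among the anterior libraries, with 26.0, 27.6 and 27.6 CPM. Posterior replicate 1 matched them at 27.8 CPM, whereas replicates 2 and 3 had 14.4 and 16.1 CPM. Its log2 fold change was -0.48 (standard error 0.24, 95% interval -1.03 to 0.081, adjusted p = 0.257, edgeR).

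Slc4a1 encodes band 3, the anion exchanger of the red cell membrane. It had 12.5, 10.8 and 9.08 CPM in the anterior and 10.3, 3.83 and 6.45 CPM in the posterior libraries. Here the highest library was anterior replicate 1, and posterior replicate 1 lay inside the anterior range. It had the lowest fitted value of the 9 genes, -0.65 (standard error 0.33, 95% interval -1.43 to 0.13, adjusted p = 0.265, edgeR).

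**Figure D1:**
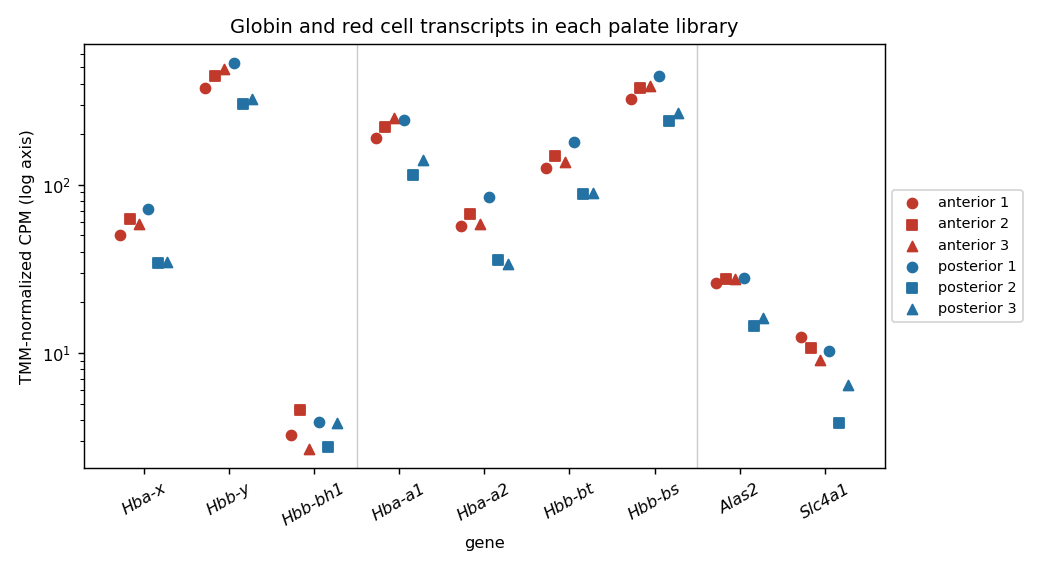
CPM (log axis) of the 9 genes in each of the 6 libraries, with anterior libraries in red, posterior libraries in blue and 1 symbol per replicate; embryonic globins, adult globins and other red cell genes are parted by grey lines. Posterior replicates 2 and 3 are the lowest points for 8 of the 9 genes, Hbb-bh1 being the exception, and posterior replicate 1 lies with or above the anterior libraries.

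Levels of different genes were compared per kilobase of transcript. Hbb-y stood highest, with 648 ± 143 CPM per kb (SD over 6 libraries), followed by Hbb-bs with 540.4 ± 121 CPM per kb. Below them came Hba-a1 (275 ± 79.0 CPM per kb), Hbb-bt (182 ± 50 CPM per kb), Hba-a2 (101 ± 34.5 CPM per kb) and Hba-x (65.0 ± 18.8 CPM per kb). Alas2 (11.4 ± 3.06 CPM per kb), Hbb-bh1 (5.71 ± 1.21 CPM per kb) and Slc4a1 (1.94 ± 0.698 CPM per kb) were far lower. Each gene exceeded the next in 6 of 6 libraries, including neighbours whose ranges over libraries overlap.

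This order depends on how the shared sequence of the adult pairs is treated. With counts divided by the number of 50-base windows found in no other gene, Hbb-bs was highest, at 171 ± 38.5 CPM per 100 unique windows (SD over 6 libraries). Hba-a1 (91.3 ± 26.2) and Hba-a2 (85 ± 29 in the same unit) could then not be ranked, Hba-a1 being higher in 4 of 6 libraries. Hbb-y came next at 70.2 ± 15.5 and was below Hba-a2 in 5 of 6 libraries. Hba-a2 had 0.290 ± 0.0433 times the counts of Hba-a1 (SD over 6 libraries), and 0.929 ± 0.138 times per unique window.

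The balance of embryonic and adult globin was given per library as the ratio of embryonic to adult counts. In the alpha cluster Hba-x counts over Hba-a1 plus Hba-a2 counts were 0.204, 0.219 and 0.190 in anterior replicates 1, 2 and 3. They were 0.218, 0.230 and 0.200 in posterior replicates 1, 2 and 3. The regions overlapped, with means of 0.205 ± 0.0144 and 0.216 ± 0.0149 (SD, n = 3) and a log2 difference of 0.077 ± 0.10 (SD of the libraries within regions).

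In the beta cluster Hbb-y plus Hbb-bh1 counts over Hbb-bt plus Hbb-bs counts were 0.836, 0.857 and 0.936 in the anterior libraries. The posterior libraries had 0.856, 0.927 and 0.920. The regions overlapped again, with means of 0.876 ± 0.0530 and 0.901 ± 0.0389 (SD, n = 3) and a log2 difference of 0.041 ± 0.086 (SD of the libraries within regions). As a share, embryonic transcripts made up 16% to 18.7% of alpha-type counts and 45.5% to 48.4% of beta-type counts. The exact (Clopper-Pearson) 95% interval was 14.9% to 17.1% for the lowest alpha share, in anterior replicate 3, and 17.2% to 20.2% for the highest, in posterior replicate 2. For beta it was 44.6% to 46.5% in anterior replicate 1, the lowest, and 47.4% to 49.3% in anterior replicate 3, the highest. These intervals cover counting error only.

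**Figure D2:**
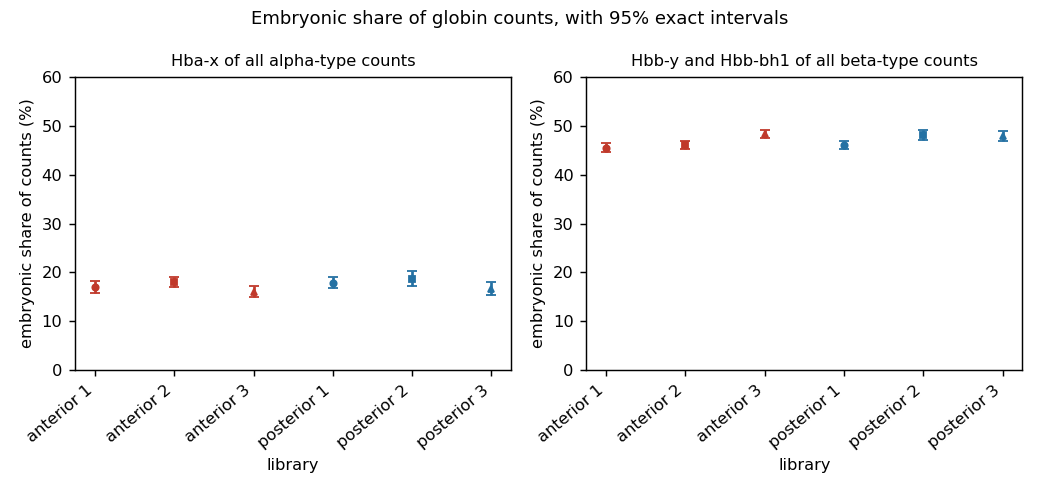
Embryonic share of alpha-type counts (left) and of beta-type counts (right), in percent, in each of the 6 libraries, with exact 95% intervals for counting error as bars. The alpha share stays between 16% and 18.7% and the beta share between 45.5% and 48.4%, and the regions overlap in both panels.

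The ratio varied much less between libraries than the amount of globin did. From the lowest to the highest library it spanned 1.21-fold in the alpha and 1.12-fold in the beta cluster. The 7 globins together had 1125, 1323 and 1375 CPM in the anterior and 1552, 816 and 898 CPM in the posterior libraries, a 1.90-fold range. They took 0.0811% to 0.154% of all counts. The beta cluster was the more embryonic of the 2 in every library, also where both ratios were taken per unique window. The size of either ratio depended on the scale. Per unique 50-base window the mean over libraries was 0.0395 for alpha and 0.326 for beta, against 0.210 and 0.889 from plain counts, and on each scale the regions overlapped.

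The balance of the 2 clusters was also set out, chosen after its values were seen and with no test. Alpha-type over beta-type counts were 0.359, 0.358 and 0.361 in the anterior libraries. The posterior libraries had 0.346, 0.291 and 0.305, all below the anterior ones. Alas2 counts per 1000 globin counts were 23.1, 20.8 and 20.1 in the anterior and 17.9, 17.7 and 18.0 in the posterior libraries, which did not overlap either. The same measure for Slc4a1 did overlap, with 11.1, 8.13 and 6.61 against 6.66, 4.69 and 7.18. Among single genes, CPM ranges that did not overlap were found for 28.0%. The share among ratios of this kind was not computed.

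**Figure D3:**
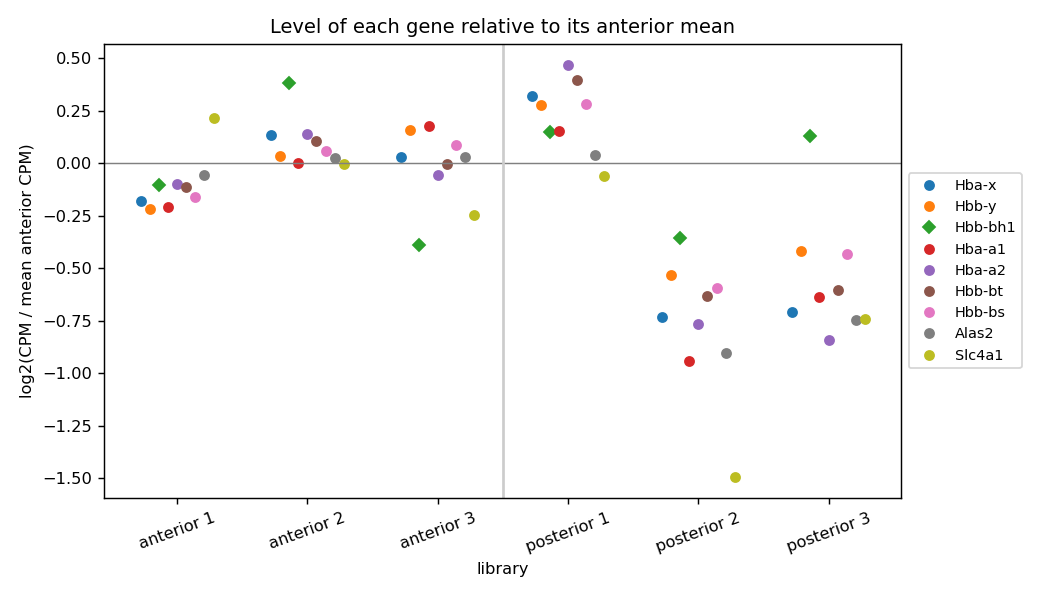
Log2 ratio of each library's CPM to the gene's anterior mean for the 9 genes, with 1 colour per gene and a diamond for Hbb-bh1; the grey lines mark 0 and the border between regions. In posterior replicates 2 and 3 the points of 8 genes lie between -0.42 and -1.49, whereas in posterior replicate 1 the points of 8 genes lie above 0, Slc4a1 being the exception at -0.063.

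The posterior libraries split in the same way for nearly all of these genes. Against the anterior mean, the median of the 9 genes was 0.28, -0.73 and -0.64 (log2) in posterior replicates 1, 2 and 3. The same medians over all genes tested were 0.00034, -0.013 and -0.012. For 8 of the 9 genes, all but Hbb-bh1, both posterior replicates 2 and 3 were below each of the other 4 libraries, a pattern found for 26.8% of all genes tested. These are the libraries with fewer multimapped and mitochondrial reads, and the part of that difference in the globin values was not tested.

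Whether a regional difference was called rested on posterior replicate 1. Without posterior replicate 1, 8 of the 9 genes were called lower in the posterior palate by edgeR, where 21.1% of all genes tested were (25.3% were called higher). The posterior side of that fit is replicates 2 and 3 alone. Region cannot be told apart in it from whatever set those libraries apart. Log2 fold changes then ran from -1.06 for Slc4a1, -0.82 for Alas2 and -0.80 for Hba-a2 to -0.47 for Hbb-y, with adjusted p-values from 0.000352 to 0.00945, and Hbb-bh1 stayed uncalled at -0.092. When posterior replicates 2 and 3 were given a term of their own, so that the regional difference came from posterior replicate 1 against the anterior libraries, 8 of the 9 values were above 0. Hba-a2 (0.47, adjusted p = 0.0338, edgeR) and Hbb-bt (0.40, adjusted p = 0.0363, edgeR) were called higher in the posterior palate, against 4.4% of all genes (3.21% were called lower), and Slc4a1 was at -0.065. Only posterior replicate 1 carries that difference, so it has no replicate of its own. Correcting each library for the trend on transcript length left 0 of the 9 called, against 9.03% of all genes, and 8 of the 9 below 0, from -0.73 for Slc4a1 to -0.042 for Hbb-y, with Hbb-bh1 at 0.16. All globins but Hbb-bh1 came closer to 0 in that fit, with -0.064 for Hbb-bs and -0.076 for Hbb-bt. Hba-a1 was at -0.27, Hba-a2 at -0.14 and Hba-x at -0.16. Alas2 (-0.39) also came closer, and Slc4a1 did not.

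**Figure D4:**
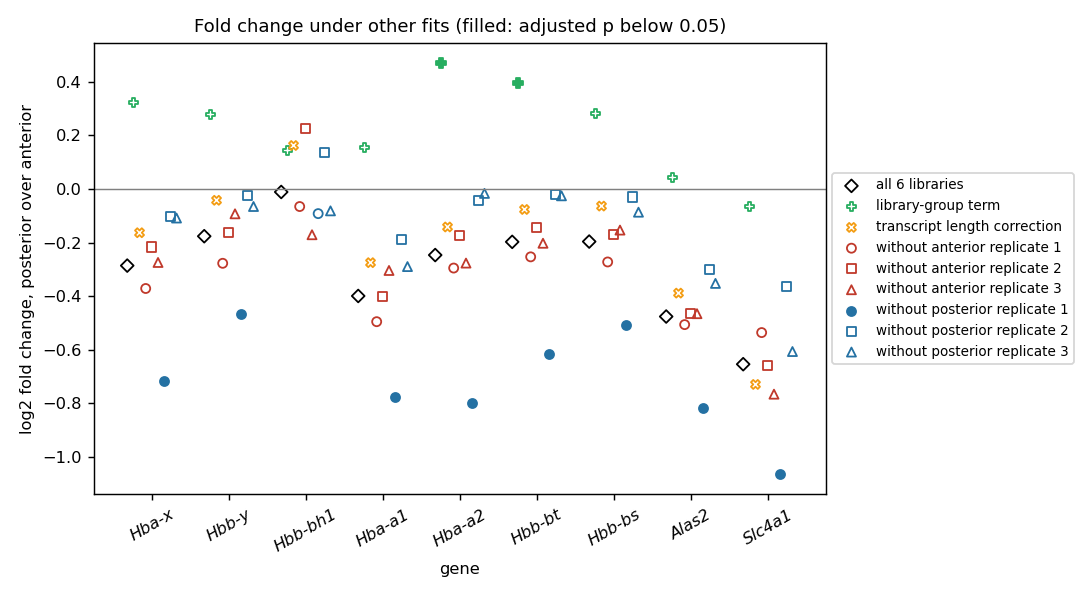
Log2 fold change of posterior over anterior palate for each gene under the fit to all 6 libraries, the fit with the library-group term, the correction for transcript length and the fits that leave out 1 library, with filled symbols for an adjusted p below 0.05. Leaving out posterior replicate 1 gives the lowest value for 8 of the 9 genes (-0.47 to -1.06), and the library-group term gives values above 0 for 8 of the 9.

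The 9 genes followed each other across libraries, apart from Hbb-bh1. Over the 6 libraries, Pearson correlations of log2 CPM were 0.709 to 0.996 (median 0.942) for the 28 pairs without Hbb-bh1 and 0.259 to 0.436 for the 8 pairs with it. The pairs share their libraries and scaling, and Hbb-bh1 rests on 31 to 63 counts. Outside the group, the 5 genes closest to the mean log2 CPM of the 9, of 11819 candidates, were Trip6 (r = 0.997), Ctdnep1 (0.996), Ddx49 (0.996), Ube2q1 (0.996) and Tceal8 (0.996). All 5 were at their highest in posterior replicate 1 and at their lowest in posterior replicate 2, over narrower ranges. Trip6, for example, had 98.2, 102 and 98.8 CPM in the anterior and 108, 76.0 and 81.7 CPM in the posterior libraries. Correlations of at least 0.9 were reached by 11% of the candidates.

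Other globins were at the limit of detection or were called higher in the posterior palate. The beta-cluster pseudogene Hbb-bh0 (2 to 6 counts per library), its neighbour Hbb-bh2 (0 to 1), the theta genes Hbq1a (0 to 3) and Hbq1b (0 to 4) and neuroglobin, Ngb (2 to 5), were too low to test. The 2 that were called are not red cell globins. Cytoglobin, Cygb, a globin of fibroblasts, had 13.4, 15.8 and 21.7 CPM in the anterior and 29.6, 35.9 and 27.1 CPM in the posterior libraries (log2 fold change 0.87, standard error 0.20, adjusted p = 0.0423, edgeR). Myoglobin, Mb, the oxygen store of muscle, had 0.531, 0.364 and 0.173 CPM in the anterior and 2.47, 2.67 and 3.43 CPM in the posterior libraries (2.95, standard error 0.39, adjusted p = 0.0044, edgeR). Mb rests on 7, 5 and 2 anterior and 33, 37 and 50 posterior counts, so it passed the filter through the posterior libraries alone, was not tested without any 1 of them, and its fold change is imprecise. For both the regions did not overlap. The call of Cygb was lost without anterior replicate 1 (0.72, adjusted p = 0.149), anterior replicate 2 (0.82, adjusted p = 0.180), posterior replicate 2 (0.74, adjusted p = 0.157) or posterior replicate 3 (0.96, adjusted p = 0.0712) and with the library-group term (0.81, adjusted p = 0.109), the replicate block (0.88, adjusted p = 0.0667) or scaling by library size alone (0.82, adjusted p = 0.0524, all by edgeR). The 5 skeletal muscle markers Actc1, Myog, Myh3, Tnnt1 and Ttn, all called higher by edgeR (4.87% of all genes were), summed to 5.77 to 10.1 CPM in the anterior and 496 to 891 CPM in the posterior libraries, and their part in the Mb value was not tested. Myog and Ttn had few anterior counts (6, 10 and 11, and 4, 11 and 14) and passed the filter with the help of the posterior libraries.

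Of 41 other genes of red cell formation, 40 were in the table and 32 were tested. In edgeR's test 1 was called higher, 1 lower and 30 were not called, against 4.87% and 2.59% of all genes. The median log2 fold change was -0.15, with 19 values below 0 and 13 above, and for 10 of the 32 the regions did not overlap, against 28.0% of all genes.

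Of the erythroid transcription factors, Gata1, Gfi1b, Klf1 and Nfe2 were low in every library. Gata1, the master regulator of red cell genes, had 2 to 9 counts and Gfi1b 0 to 2, too few to test. Klf1, the activator of adult beta globin, had 11, 27 and 30 counts in the anterior and 12, 8 and 13 counts in the posterior libraries (log2 fold change -1.17, standard error 0.46, adjusted p = 0.165, edgeR). Tal1 (-0.38), Nfe2 (-0.70) and Lmo2 (0.15) were not called. Zfpm1, the GATA1 cofactor FOG1, had 16.8, 17.3 and 20.7 CPM in the anterior and 9.96, 10.7 and 11.5 CPM in the posterior libraries, which did not overlap. At a log2 fold change of -0.77 it passed the test (standard error 0.14, adjusted p = 0.0166, edgeR), and the call was lost without any 1 of the anterior libraries or posterior replicate 2. With the library-group term, where the posterior side is 1 library, the value was -0.87.

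Among the 9 heme genes other than Alas2, edgeR called 0 (1 had an unadjusted p below 0.05) and the median was -0.12. Most of these enzymes are used by all cells. Urod, a mid-pathway decarboxylase, came nearest to the threshold (-0.47, standard error 0.13, adjusted p = 0.0784, edgeR) and was called by DESeq2 (adjusted p = 0.0323) and by edgeR without the filter on low counts (adjusted p = 0.0474) and without posterior replicate 1 (-0.61, adjusted p = 0.000398). It was followed by Cpox (-0.34), the next enzyme, and Alad (-0.38), the second enzyme of the pathway. Uros (0.033), Ppox (0.11) and the mitochondrial iron carrier Slc25a37 (0.25) had values above 0. Fech, which inserts the iron, varied little, at 63.9 ± 0.177 CPM and 59.0 ± 1.24 CPM (SD, n = 3).

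The genes of the red cell membrane and its skeleton lay on both sides of 0. Of 13, 10 were tested, with a median of -0.015 and 5 values on each side of 0. Gypc, which encodes glycophorin C, had 39.9, 37.9 and 45.9 CPM in the anterior and 54.0, 51.8 and 54.9 CPM in the posterior libraries, which did not overlap (0.38, standard error 0.10, adjusted p = 0.0752, edgeR). It was called by DESeq2 (adjusted p = 0.0409), and by edgeR with the length correction (0.48, adjusted p = 0.0287) and without posterior replicate 1 (0.38, adjusted p = 0.0129). Ank1 encodes ankyrin-1, which ties band 3 to spectrin in red cells and also has a short muscle form. It had 3.72, 3.85 and 5.71 CPM in the anterior and 12.4, 17.0 and 19.3 CPM in the posterior libraries, which did not overlap. The log2 fold change of 1.88 passed the test (standard error 0.24, adjusted p = 0.0041, edgeR), and the call held without each library in turn. Whether these reads came from the muscle form was not tested, and the summed muscle markers given for Mb moved the same way. The beta spectrin gene Sptb (0.35) was not called, and Epb42, Rhag and Kel (at most 13 counts) were too low to test.

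Among the genes of iron uptake and other red cell functions, 8 of 12 were tested and edgeR called 0 (3 had an unadjusted p below 0.05). The erythropoietin receptor gene Epor had 2.73, 2.11 and 3.81 CPM in the anterior and 0.973, 1.66 and 1.65 CPM in the posterior libraries (-1.0, standard error 0.33, adjusted p = 0.123, edgeR). Car2, the carbonic anhydrase of red cells and many other cells, had 11, 14 and 24.4 CPM against 8.76, 4.33 and 4.73 CPM (-1.47, standard error 0.37, adjusted p = 0.0591, edgeR). Car2 was called by DESeq2 (adjusted p = 0.0020), and by edgeR without the filter on low counts (adjusted p = 0.0031), with the length correction (-1.37, adjusted p = 0.0469) and without posterior replicate 1 (-1.85, adjusted p = 0.0034). Neither overlapped between regions, and for Epor, unlike the globins, posterior replicate 1 was the lowest library. Tfrc, the transferrin receptor, had a value above 0, with 36.6, 34.0 and 48.2 CPM against 35.0, 65.0 and 91.8 CPM (0.69, standard error 0.32, adjusted p = 0.228, edgeR). Its highest libraries were posterior replicates 3 and 2, the ones lowest in globin. Car1 (0 to 4 counts), Hemgn (2 to 10) and Trim58 (0 to 1) were too low to test.

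**Figure D5:**
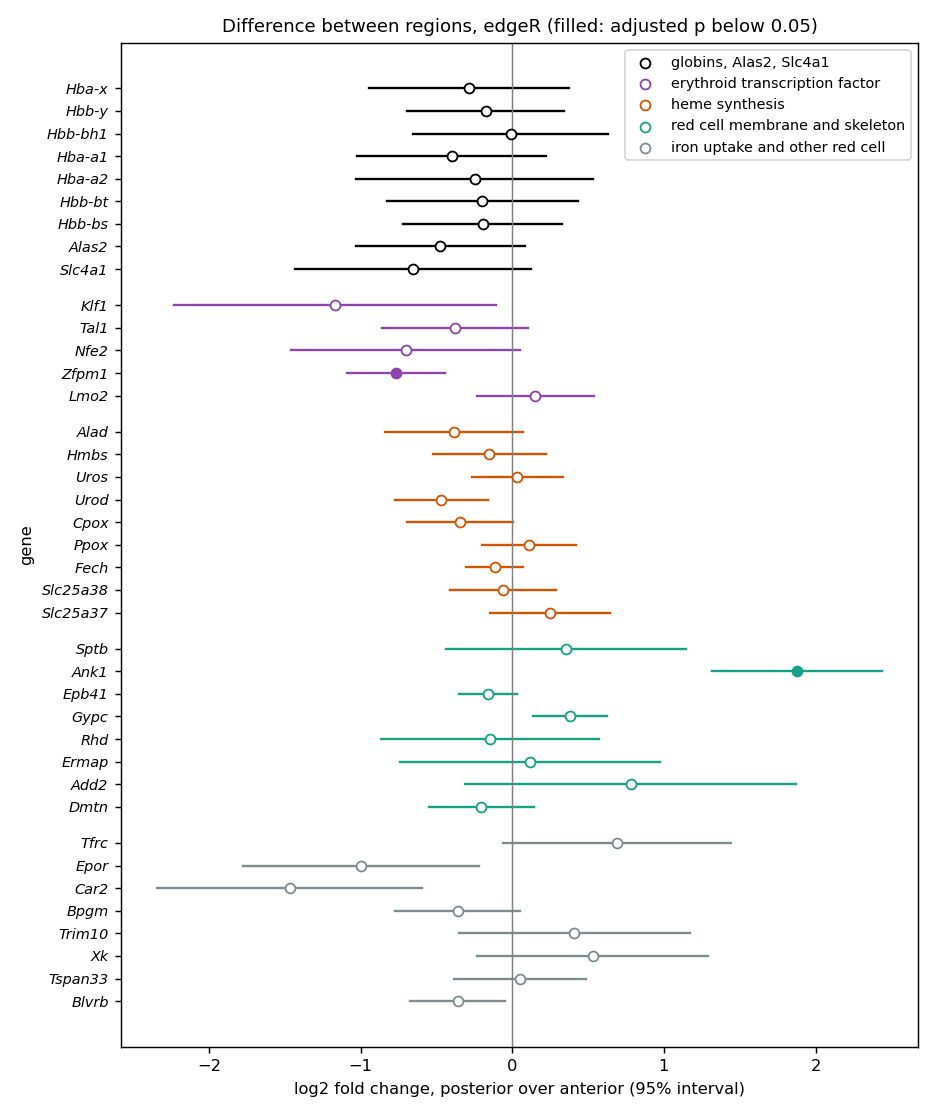
Log2 fold change of posterior over anterior palate with its 95% interval from edgeR for the 9 genes and for tested genes of red cell formation, coloured by role, with filled symbols for an adjusted p below 0.05. The intervals of all 9 genes span 0, and the 2 filled symbols are Zfpm1 at -0.77 and Ank1 at 1.88.

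Markers of vessels and of other blood cells were also read in each library. The 7 endothelial markers (Pecam1, Cdh5, Kdr, Tek, Cldn5, Emcn and Tie1), of which edgeR called 0 (1 at an unadjusted p below 0.05) and DESeq2 1, summed to 445 to 468 CPM in the anterior libraries. In the posterior palate they had 390.2, 587 and 631 CPM in replicates 1, 2 and 3, lowest where globin was highest. Cldn5 went the other way, at 34.9, 32.9 and 29.7 CPM in these libraries. Long transcripts were relatively high in posterior replicates 2 and 3, with fitted offsets at 5000 bases of 0.14 and 0.16 (log2). The other libraries had -0.092 to -0.048. The part of this trend in the sum was not tested. The 7 myeloid markers (Ptprc, Csf1r, Lyz2, Adgre1, C1qa, C1qb and Mrc1), with 0 called by edgeR (4 at an unadjusted p below 0.05) and 1 by DESeq2, summed to 113 to 131 CPM in the anterior and 129, 166 and 182 CPM in the posterior libraries. Of 7 platelet and megakaryocyte markers 3 were tested and 0 called by edgeR or DESeq2 (0 at an unadjusted p below 0.05), with sums of 10.6 to 12.1 CPM in the anterior and 18.5, 15.2 and 9.81 CPM in the posterior libraries, highest, as for most globins, in posterior replicate 1. For comparison, 25.2% of all genes passed an unadjusted p of 0.05 in edgeR, and DESeq2 called 8.56% higher and 4.06% lower. Among the markers of the palate tissue itself, edgeR called 2 of 6 mesenchymal genes higher and 1 lower (4.87% and 2.59% of all genes). DESeq2 called all 6, and for all 6 the regions did not overlap, against 28.0% of all genes. Of 5 epithelial genes edgeR called 1 lower and DESeq2 called 2. The part of these cells in the red cell values was not tested.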

How the data were processed

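Bulk RNA-seq of 6 libraries (3 anterior, 3 posterior palate) was analysed, grouped by the region in the labels. For every library the authors deposited unnormalized read counts per Ensembl gene, laid out as STAR writes them. The study's methods name HISAT2, StringTie and DESeq2 1.30.1. The read length and the annotation version are not given in the sources used here. The reverse-stranded counts (18.95 to 23.1 times those of the other strand) were used. Reads mapping to several places stayed out.

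The regions were compared by the quasi-likelihood test of edgeR 4.0.16 (R 4.3.3) with TMM scaling, Benjamini-Hochberg adjustment and a threshold of 0.05, on genes that reached 10 counts in 3 or more libraries. Region was the only term. The genes, lists and alternatives were chosen with earlier results of these data known. Named are the 9 genes, those on the lists, and the 5 genes with the highest correlation with the mean log2(CPM + 0.5) of the 9, among tested genes with a mean of at least 5 CPM. Symbols, positions, transcript lengths and coding sequences came from GENCODE M21, matched without version numbers, and promoters from RefSeq (GRCm38.p6). A window counted as shared if its sequence occurred in a transcript of another gene. Shares have exact binomial intervals. Replicates differed by more than sampling noise (chi-square per gene 3.73 to 67.99).

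Alternatives were DESeq2 1.42.0, RLE scaling, limma-voom (limma 3.58.1), scaling by library size alone, no filter on low counts, 10 counts in every library, unstranded counts, a replicate block, the library-group term (groups parted at the largest gap in the multimapped share), leaving the 9 genes out of library sizes, other scales for the ratios and leaving out each library. The unique-window scales and the length correction were chosen after seeing the data. The fit was run on simulated counts in which 200 genes had been changed: 87 of 100 with a log2 change of 1 and 100 of 100 with 2 were recovered, with 6 false calls among 15436 genes. The changed genes were not low in CPM, and the simulated libraries did not stand apart as the real posterior ones did. The rates may therefore not hold for these libraries. Ahsp was not analysed here, and values of single genes counted in a list are in a few cases not given.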

Additional observations from a re-analysis of the deposited data

How the results depend on the processing

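Depth limits Hbb-bh1 (31 to 63 counts), whose sign carries no weight: its log2 fold change turned to 0.0064 with the replicate block, 0.14 with the library-group term, 0.16 with the length correction, 0.23 without anterior replicate 2 and 0.14 without posterior replicate 2, and leaving out 1 library it ran from -0.17 to 0.23. Under the library-group term Hba-a1 (0.15), Hba-a2 (0.47), Hba-x (0.32), Hbb-bt (0.40), Hbb-bs (0.28), Hbb-y (0.28) and Alas2 (0.042) also turned, and 2 of the 9 genes were called. Leaving out 1 library gave 0 to 8 of the 9 called, 1 to 11 of the other red cell genes and 498 to 7119 of all genes, in each case the highest without posterior replicate 1. In that fit region and library group coincide. The causes were not tested.

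All genes called numbered 1169 in the report, 1978 by DESeq2 and 2162 without the low-count filter. The other red cell genes called numbered 2 in the report, 5 by DESeq2, 4 without the filter and 4 with the length correction. Of the values of the 9 genes, 81 of 90 under the 10 settings other than the length correction that keep all libraries, 8 of 9 with that correction, and 44 of 54 when a library was left out, kept their sign and side of the threshold. Scaling by library size alone put the median of all genes at -0.049 (log2).

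The embryonic to adult ratio, 0.210 for alpha, was 0.173 per transcript length, 0.272 from the most abundant gene of each kind, and 0.0395 and 0.0610 per unique 50-base and 100-base window. For beta it was 0.889, with 1.21 from the most abundant genes and 0.326 and 0.356 per unique window.

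The replicate numbers did not pair the libraries (correlations of deviations -0.053, 0.045 and 0.036). With the replicate block 829 genes and 0 of the 9 were called.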
